A study of Mus musculus with 2 samples.

Results

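The glucocorticoid receptor, the enzymes that make or remove its ligand, and a set of genes that the receptor is known to induce were examined in kidney RNA of mice without Iah1. The 10 genes were chosen by name, with earlier results of the same arrays known, as 1 receptor (Nr3c1), both 11beta-hydroxysteroid dehydrogenases (Hsd11b1 and Hsd11b2) and 7 induced genes (Fkbp5, Tsc22d3, Zbtb16, Klf9, Sgk1, Errfi1 and Ddit4), out of 22180 genes measured. Each of the 10 had 1 probe set, the group of probes that reports 1 transcript, and that probe set carried no other gene's symbol. One group, Iah1-WT, was wild type, and the other, Iah1-KO, was a systemic knockout of Iah1, which encodes a homolog of an esterase that hydrolyses isoamyl acetate. All mice of both groups were males that were on laboratory chow up to an age of 6 weeks and then on a high-fat diet for 12 weeks, lived 1 to a cage, and were decapitated soon after midday following 4 hours with no food. Kidney RNA of 3 mice per genotype was pooled on 1 Affymetrix array. For the strain, the deleted part of Iah1 and the number of founder lines, the sources used here give nothing. The arrays are called wild-type and knockout below.

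Glucocorticoids (corticosterone in mice) enter cells and bind a receptor that is held in the cytoplasm by heat shock protein chaperones. The bound receptor moves into the nucleus, binds DNA at response elements and raises or lowers transcription of its target genes. In the kidney the hormone acts along the whole nephron. In the distal segments the enzyme encoded by Hsd11b2 inactivates it, which keeps the related mineralocorticoid receptor free for aldosterone. Several genes used as readouts of the glucocorticoid receptor, Sgk1, Tsc22d3, Fkbp5 and Zbtb16 among them, also respond to the mineralocorticoid receptor, so their level alone does not name the receptor that acted. In nocturnal animals corticosterone is low in the morning and climbs toward the dark phase, and stress raises it within minutes. Hormone levels were not analysed here.

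The response element is a pair of inverted half-sites, searched for here as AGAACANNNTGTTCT (N is any base), with the single half-site TGTTCT searched on both strands. The half-site search also finds both arms of every palindrome. The windows were those of the RefSeq promoter table for the mouse build GRCm38.p6, each with 250 bases before and 50 bases after an annotated transcript start. Of the 10 genes, 7 matched an entry, with 15 windows in all: Hsd11b1, Fkbp5, Klf9 and Ddit4 with 1 each, Errfi1 with 2, Tsc22d3 with 3 and Sgk1 with 6. The whole palindrome occurred in 3 of 32851 windows (0.00913%), and 1 of those 3 belonged to Sgk1. The half-site occurred in 19.0% of all windows and in 4 of the 15, which were 3 of Sgk1 and 1 of Tsc22d3. By gene that is 2 of the 7, beside 21.3% of all genes with a window. Of 34 windows of other genes that glucocorticoids are known to induce, 2 (5.88%) held the half-site and 0 the palindrome. A GC box (GGGCGG, both strands) occurred in 35.7% of all windows and in 7 of the 15, with 4 matches in the single window of Fkbp5. Stretches of 3 of these windows are printed, because their genes stood at different places in the comparison: Fkbp5 and Tsc22d3 were among the induced genes with larger differences, and Sgk1, with the only whole palindrome, was not. They lie upstream of the start and read 5′ to 3′ on the gene's own strand. Capitals mark the half-sites in Sgk1 and Tsc22d3 and the GC boxes in Fkbp5.
Sgk1, chr10:21993656-21993760, plus strand: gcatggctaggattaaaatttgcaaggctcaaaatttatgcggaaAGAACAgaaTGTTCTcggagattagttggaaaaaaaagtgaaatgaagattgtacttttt
Tsc22d3, chrX:140600653-140600757, minus strand: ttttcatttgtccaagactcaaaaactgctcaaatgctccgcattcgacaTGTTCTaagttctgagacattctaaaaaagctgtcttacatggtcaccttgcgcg
Fkbp5, chr17:28486150-28486299, minus strand: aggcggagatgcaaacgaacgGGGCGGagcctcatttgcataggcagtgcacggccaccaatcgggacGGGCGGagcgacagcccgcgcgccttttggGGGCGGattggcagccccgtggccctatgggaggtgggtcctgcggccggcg

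In the Sgk1 stretch the palindrome begins 189 bases before 1 of the 6 annotated starts. In the Tsc22d3 stretch the half-site begins 185 bases before 1 of 3 starts and has no partner at the spacing searched. The 3 GC boxes of the Fkbp5 stretch begin 129, 82 and 52 bases before its start. Response elements often lie outside such windows, a match is no evidence of binding, and a window without one says only that these letters are not in it.

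Values are log2 RMA values, on which a difference of 1 is 2-fold. They compare 1 gene between arrays but not 1 gene with another, because probes differ in brightness. With 1 array per genotype there is no test, standard error or p-value, and the spread between mice is unknown. In its place each difference (knockout minus wild-type) is set beside a local robust SD, the spread of the differences of the 500 genes nearest in mean value, which describes these 2 arrays and not the animals. Genes were counted at an expression floor of log2 6 in the brighter array, which 7671 genes reached; their median difference was 0.01 and the middle 95% lay between -0.30 and 0.35. Medians of all 41345 probe sets were 4.05 in the wild-type and 4.03 in the knockout array. The targeted gene Iah1 went with the labels, at 9.09 in the wild-type and 3.60 in the knockout array. All 15 proximal tubule markers reached the floor, between 6.99 and 12.8.

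Most of the 10 genes stood at nearly the same level in both arrays. On the log2 scale the largest departures were those of 3 induced genes. Zbtb16 was 1.66-fold higher, Fkbp5 1.24-fold higher and Tsc22d3 1.17-fold higher in the knockout array. The other 7, the receptor and both dehydrogenases included, differed by no more than 0.12 on the log2 scale in either direction. At a threshold of 1.5-fold, 1 of the 10 (Zbtb16) was higher, beside 0.222% of all genes at or above the floor, and 0 were lower, beside 0.209%. At 1.2-fold, a threshold added after the data were seen, 2 were higher (Zbtb16 and Fkbp5), beside 5.36% of all genes, and 0 were lower, beside 3.77%. Zbtb16 entered these counts through its value in the knockout array alone, because its wild-type value was below the floor. With the floor on the mean of the arrays, which leaves Zbtb16 out, the 1.5-fold count of higher genes was 0, beside 0.147% of all genes. The genes were named with these differences known, so no significance is read from those counts.

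**Figure D1:**
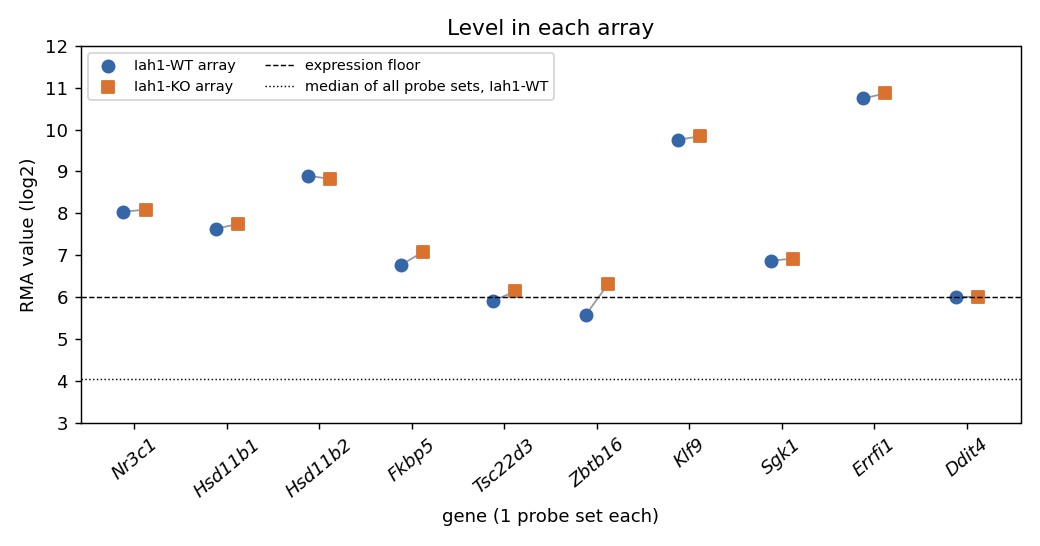
Log2 RMA value of the 10 genes in the wild-type array (circles) and the knockout array (squares), 1 probe set and 1 array of pooled RNA per point; the dashed line is the expression floor of 6 and the dotted line the median of all probe sets. Zbtb16 shows the widest gap, 5.57 against 6.31, and heights of different genes are not comparable.

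The receptor gene Nr3c1 had a value of 8.04 in the wild-type array and 8.09 in the knockout array. The difference of 0.05 was 0.46 local robust SDs, and 62.8% of the genes at or above the floor had a lower difference. Both arrays thus held the receptor transcript at nearly equal level. Transcript level does not report the amount, location or activity of the receptor protein.

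The dehydrogenases set how much active hormone reaches the receptor inside a cell. Hsd11b1 encodes the form that mainly regenerates corticosterone from its inactive keto form. It had a value of 7.63 in the wild-type and 7.75 in the knockout array, a difference of 0.11 or 0.91 local robust SDs. Hsd11b2, the inactivating form of the distal nephron, was the only one of the 10 with a lower value in the knockout array. It stood at 8.90 in the wild-type and 8.82 in the knockout array, a difference of -0.08 or -0.78 local robust SDs. The regenerating enzyme was therefore slightly brighter and the inactivating enzyme slightly dimmer in the knockout array, each by less than the local robust SD. H6pd, which supplies NADPH to the regenerating enzyme inside the endoplasmic reticulum, was at 8.55 and 8.72, a difference of 0.17 or 1.52 local robust SDs. Of 5 genes listed for corticosteroid metabolism and transport at or above the floor, H6pd included, 3 were higher and 2 lower, with a median of 0.09. Hsd3b2 was at 8.98 and 8.82, a difference of -0.16 or -1.77 local robust SDs. Cbr1 differed by 0.12, Akr1d1 by 0.09 and Akr1c14 by -0.03.

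Among the induced genes, Zbtb16 had the largest difference. It encodes PLZF, a zinc finger transcriptional repressor that glucocorticoids induce in many cell types. Its value was 5.57 in the wild-type and 6.31 in the knockout array. The difference of 0.73 was 2.70 local robust SDs, ranked 11 from the highest of 7671 genes and 19 by size in either direction. Zbtb16 reached the floor in the knockout array alone, so a gene as dim as this enters the count through its higher value. The local robust SD was 0.27 here against 0.10 for Klf9. Part of that width comes from the floor, because a gene with a mean below log2 6 reaches it only with a large enough difference. The 2.70 local robust SDs carry that limit. Of the 500 genes nearest in level that reached the floor, 99.2% had a lower difference.

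Fkbp5 encodes FKBP51, a co-chaperone that lowers the receptor's affinity for hormone and so closes a negative feedback loop. It stood at 6.76 in the wild-type and 7.08 in the knockout array, above the floor in both. The difference of 0.31 was 2.13 local robust SDs and ranked 261 from the highest, with 95.8% of the 500 nearest genes below it. Zbtb16 and Fkbp5 also had the largest differences of the 10 when measured in local robust SDs. Tsc22d3 encodes GILZ, a leucine zipper protein that carries part of the anti-inflammatory action of glucocorticoids. It stood at 5.91 in the wild-type and 6.14 in the knockout array and, like Zbtb16, reached the floor in the knockout array alone. Its difference of 0.22 was 1.01 local robust SDs, with 81.2% of the 500 nearest genes below it, so among genes of its own brightness it was not far out.

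**Figure D2:**
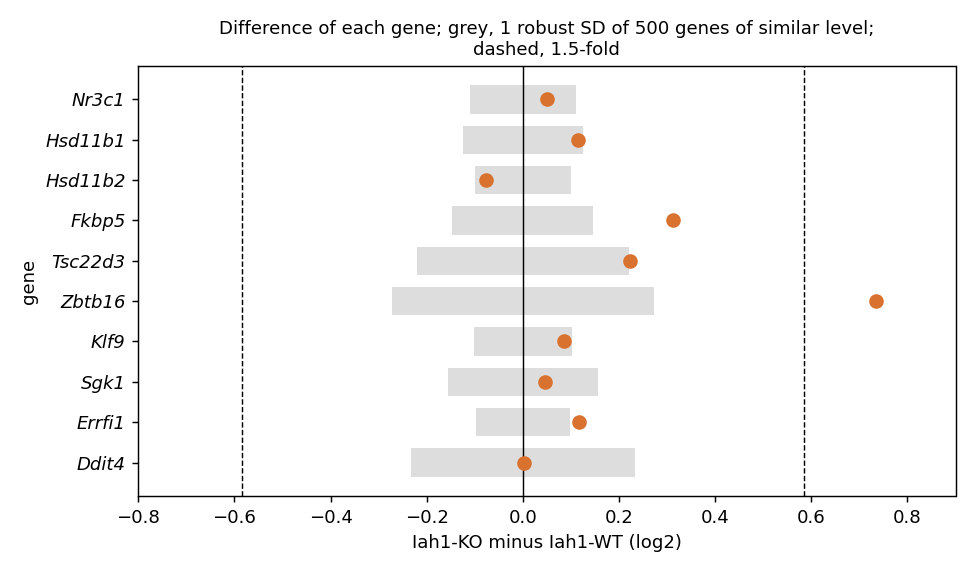
Difference of each of the 10 genes, knockout (Iah1-KO) minus wild-type (Iah1-WT) on the log2 scale (points), with 1 local robust SD on either side of 0 (grey bars) and 1.5-fold (dashed lines). Fkbp5 at 0.31 and Zbtb16 at 0.73 lie past 2 local robust SDs, and Errfi1 and Tsc22d3 just past 1. Part of the width of the Zbtb16 bar comes from the expression floor. Hsd11b2 at -0.08 is the only point left of 0.

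The other 4 induced genes differed little on the log2 scale. Errfi1, which encodes the EGF receptor inhibitor MIG6, was at 10.7 in the wild-type and 10.9 in the knockout array, a difference of 0.12 or 1.19 local robust SDs. Klf9, a zinc finger factor that responds to glucocorticoids and follows the daily hormone rhythm, was at 9.76 and 9.84, a difference of 0.08 or 0.83 local robust SDs. Both are bright on these arrays, where the local spread is narrow, and Errfi1 lay just beyond 1 local robust SD. By that measure Errfi1, with 89.0% of the 500 nearest genes below it, stood further out than Tsc22d3 at 1.01. Sgk1, the kinase through which corticosteroids raise sodium channel abundance, was at 6.87 and 6.92, a difference of 0.05 or 0.30 local robust SDs. Ddit4, which encodes REDD1, an inhibitor of the growth kinase complex mTORC1, was at 6.00 in both arrays with a difference of 0.00. The gene with the whole palindrome in a promoter window, Sgk1, thus had one of the smaller differences of the set. Sgk1 also had the most windows, and Zbtb16, with the largest difference, had no window to search.

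All 7 induced genes lay above 0, but Ddit4 did so by 0.00 and turned to -0.01 when differences were centred on their median and to -0.04 after a loess correction on level. As deposited, 52.4% of all genes lay above 0. The count was 6 of 7 under either correction, beside 50% of all genes under each. The median of the 7 was 0.12, beside 0.01 for all 7671 genes. Without Tsc22d3 and Zbtb16, which reached the floor in the knockout array alone, the median of the other 5 was 0.08. These values describe genes named with results in view.

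**Figure D3:**
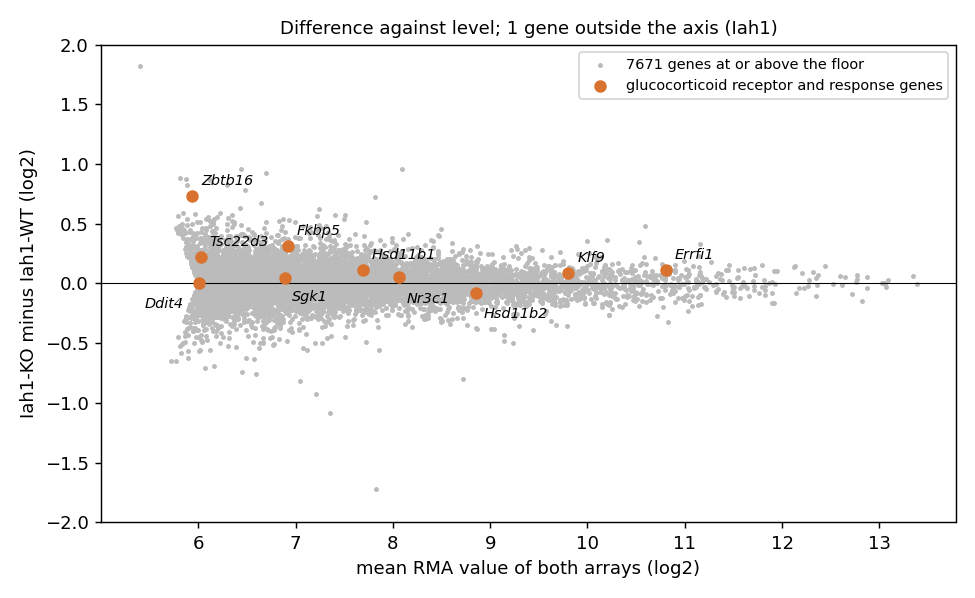
Difference, Iah1-KO minus Iah1-WT on the log2 scale, against the mean log2 value of both arrays for 7671 genes (grey) and the 10 genes (orange, named). The grey cloud is wider on the left, where Zbtb16, Tsc22d3 and Ddit4 lie, and Zbtb16 at 0.73 is near its upper edge.

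A longer list of 33 other genes that glucocorticoids are known to induce did not share one direction. Of the 24 at or above the floor, 12 were higher and 12 lower in the knockout array, with a median of 0.02 beside 0.01 for all genes. At 1.5-fold 1 of the 24 was higher (Bcl6), beside 0.222% of all genes, and 0 were lower, beside 0.209%. At 1.2-fold 3 of the 24 were higher, beside 5.36%, and 2 were lower, beside 3.77%. Bcl6, a transcriptional repressor of the same BTB zinc finger family as PLZF, was at 7.62 and 8.57. Its difference was 0.96 or 9.04 local robust SDs. Dusp1, the phosphatase that switches off stress kinases, was at 7.92 and 8.29, a difference of 0.38 or 3.59 local robust SDs. Pdk4, a kinase that blocks pyruvate use, was at 8.13 and 7.57, a difference of -0.56 or -4.74 local robust SDs. Angptl4, a secreted inhibitor of lipoprotein lipase, was at 8.38 and 8.01, a difference of -0.36 or -3.57 local robust SDs. On that scale each of them lay further out, in one direction or the other, than Zbtb16 at 2.70. Pdk4 and Angptl4 are also targets of the fatty acid receptor PPAR alpha, and Dusp1 also of growth factor signals. Bcl6, Pdk4, Angptl4 and Dusp1 were known from earlier results when the list was written.

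Of 15 inflammatory genes that glucocorticoids repress, 2 reached the floor, and both code for adhesion molecules. Icam1 was at 6.20 and 6.30 and Vcam1 at 6.22 and 6.38. Neither was lower in the knockout array, and the other 13 were too dim to compare.

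Chaperones and partners of the receptor stood at similar level in both arrays. Of 12 chaperones and co-chaperones that reached the floor, 5 were higher and 7 lower, and the median was -0.02 and 0 beyond 1.5-fold. Fkbp4, which encodes FKBP52, the relative of FKBP51 that favours hormone binding, was at 8.75 and 8.69, a difference of -0.06 against 0.31 for Fkbp5. Hsp90aa1 and Stip1, of the chaperone complex that readies the receptor for hormone, differed by -0.09 and -0.14, and Dnajb1 by 0.24. Of 16 coregulators at or above the floor, 7 were higher and 9 lower, with a median of -0.02. Smarcd1, a chromatin remodelling subunit that bridges to the receptor, was at 6.90 and 6.36, a difference of -0.54 or -3.31 local robust SDs. The brighter of its 2 probe sets was used. The coactivators Ncoa1, Ncoa2 and Ncoa3 differed by -0.02, -0.07 and 0.07. Apart from Smarcd1, the 27 others of 28 chaperones and coregulators differed by less than 0.25. The middle 95% of all genes at or above the floor lay between -0.30 and 0.35, so this closeness is not particular to these genes.

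**Figure D4:**
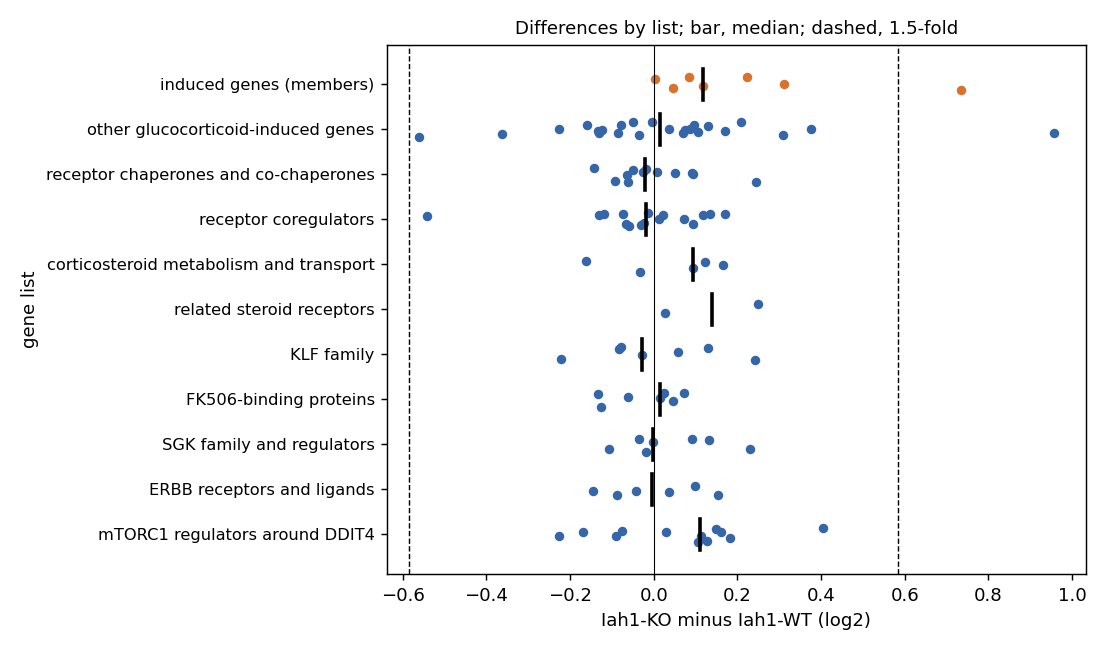
Differences, Iah1-KO minus Iah1-WT on the log2 scale, of genes at or above the floor in each list (points), with the list median (bar) and 1.5-fold (dashed lines). The 7 induced genes (orange, median 0.12) lie at or right of 0, and the 24 other induced genes spread from -0.56 to 0.96 around a median of 0.02.

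Relatives of Sgk1, Tsc22d3, Klf9 and Fkbp5 were set beside these genes. Both SGK relatives were brighter than the floor, with Sgk2 differing by 0.00 and Sgk3 by -0.11. Rictor, a subunit of the complex that activates SGK1, differed by 0.23. Of the TSC22 family, Tsc22d1 differed by 0.14 and Tsc22d2 by 0.09. Of 7 other KLF genes at or above the floor, 3 were higher and 4 lower, with a median of -0.03. Klf12 differed by 0.24 and Klf3 by -0.22, and Klf15, itself a glucocorticoid target, by 0.13. Of 7 other FK506-binding proteins at or above the floor, all lay between -0.13 and 0.07, and Fkbp5 at 0.31 was outside that range. A further 5 were below the floor and are not in it. Most of those 7 were brighter than Fkbp5, at levels where the local spread is narrower. The larger distance of Fkbp5 was not tested.

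Pathways that the induced genes feed into were described the same way. Of 6 ERBB receptors and ligands, whose signal MIG6 dampens, 3 were higher and 3 lower, with a median of 0.00. Egfr differed by 0.15 and Egf, made in large amounts by the distal nephron, by -0.09. Of 12 genes around mTORC1, 8 were higher and 4 lower, with a median of 0.11 and 0 beyond 1.5-fold. Sesn2, which restrains mTORC1 when amino acids are short, was at 7.23 and 7.64, a difference of 0.40, and Sesn1 differed by -0.23. Nedd4l, the ubiquitin ligase that SGK1 phosphorylates, was at 9.36 and 9.34. Of 9 genes listed as partners or relatives of PLZF, 6 were higher and 3 lower with a median of 0.03, and besides Bcl6 all lay between -0.06 and 0.12. The mineralocorticoid receptor gene Nr3c2 was at 6.01 and 6.26, a difference of 0.25 or 1.37 local robust SDs. The brighter of its 2 probe sets was used.

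Bulk RNA cannot tell fewer cells of a type from less RNA per cell, so marker genes were set beside the 10. Endothelial cells express the glucocorticoid receptor too. Of their 10 markers that reached the floor, 9 were higher in the knockout array, beside 52.4% of all genes, and the median difference was 0.13. The summed linear signal of the 10 markers was 2627 in the wild-type and 2809 in the knockout array. Cdh5 differed by 0.24, Ehd3 by 0.21 and Kdr, which was lower, by -0.13. Of 11 immune markers, 5 were higher, 5 lower and 1 equal. The 3 that reached the floor were Lyz2 at 0.63, Cx3cr1 at 0.41 and Csf1r at 0.11, Cx3cr1 through the knockout array alone. Below the floor, and named after their values were seen, the macrophage genes Adgre1 and Cd68 differed by -0.73 and -0.23 and the dendritic cell gene Itgax by 0.77. The summed linear signal of all 11 was 512.6 in the wild-type and 579.0 in the knockout array. The part of endothelial and immune cells in the differences of Zbtb16, Fkbp5 and Tsc22d3 was not tested. Principal cells, which express Hsd11b2, were mixed: of 8 markers, Hsd11b2 included, 4 were higher and 4 lower, with Aqp4 at 0.57, Aqp2 at 0.49 and Scnn1b at -0.12. The 15 proximal tubule markers had 7 higher and 8 lower, with their median at -0.02. Of 9 intercalated cell markers, 3 were higher and 6 lower (median -0.09), and the proton pump subunit gene Atp6v1g3, at 7.46 and 6.64, was 1.76-fold lower. Of 5 loop of Henle markers, 4 were lower (median -0.12), with Cldn10 at -0.24, and Ptger3 was higher at 0.05. Of 7 distal convoluted tubule markers, 6 were higher (median 0.04), with Cnnm2 at 0.48, and Calb1 was lower at -0.14.

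Adrenal tissue, which makes corticosterone and lies beside the kidney, gave no signal above the floor. None of its 12 markers reached the floor, and their values lay between 2.06 and 4.39 over both arrays, around or below the medians of all probe sets. Cyp11b1, which makes corticosterone, was at 2.12 and 2.53, and Star at 4.39 and 4.17. Fat around the kidney gave a similar picture: of 6 adipocyte markers, Fabp4, also an endothelial gene, reached the floor and differed by -0.07, and the others, such as Adipoq at 3.57 and 3.44, did not.

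**Figure D5:**
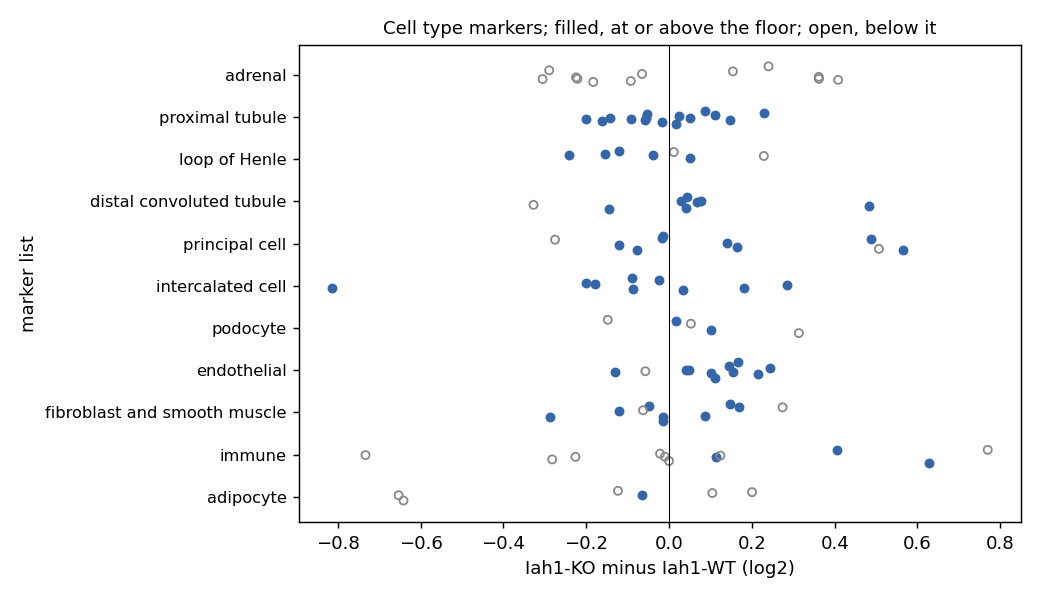
Differences of cell type markers, Iah1-KO minus Iah1-WT on the log2 scale, filled where the gene reached the floor and open where it did not. Endothelial points lie mostly right of 0 (median 0.13), all 12 adrenal points are open, and the 15 proximal tubule points lie on both sides of 0.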

How the data were processed

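Kidney RNA, pooled from 3 mice per genotype and labelled from 100 ng, was hybridized to 1 array per genotype, per the labels' protocols and the series description. The deposited log2 values per probe set were, per the submitters' processing notes, made by the authors with RMA (background subtraction, quantile normalization, probe summary) and version 1.3.0 of Affymetrix Expression Console. Quantile normalization hides a shift shared by most transcripts, and RMA compresses differences of dim probe sets. No source used here names the array's genome build.

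GEO's platform annotation gave 1 symbol to 23521 of 41345 probe sets, several to 1814 and none to 16010; the first were used, the brightest per gene. All 10 genes matched RefSeq by Entrez number. Of 290 listed genes, 272 had such a probe set; the others were not analysed here. The local robust SD is 1.4826 times the median absolute deviation. The genes named are the 10, up to 4 with the largest difference from each list, and partners or relatives of the 10. The members and lists were chosen with earlier results of these data known. Software was Python 3.11.15, pandas 2.3.3, numpy 2.4.6 and statsmodels 0.14.6. The code for counts and local spread was run on simulated differences with known shifts larger than 1.5-fold. That run checks the code only, not the differences reported here. Alternatives were centring, loess (span 0.3), the mean over probe sets, floors of 5, 7, none or on the mean, and thresholds of 2-fold, 4 local robust SDs and 1.2-fold. The number of arrays limits the precision.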

Additional observations from a re-analysis of the deposited data

How the results depend on the processing

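Over centring, loess correction and the mean over probe sets, the 30 alternative values of the 10 differences moved by at most 0.05, each by less than the gene's local robust SD; Ddit4 changed sign, from 0.00 to -0.01 and -0.04. The count of the 10 genes at least 1.5-fold higher (1, Zbtb16) became 0 with a floor of log2 7, with a floor on the mean of both arrays, with a 2-fold threshold and with 4 local robust SDs, and 2 with 1.2-fold, which was chosen after seeing the data. Both of these floors leave Zbtb16 itself out. The count of lower genes was 0 in every alternative run. Of the other induced genes, the 1 higher became 0 at 2-fold and 3 at 1.2-fold. Their count of lower genes (0) became 1 with a floor of log2 5 or none (Lcn2), 1 with 4 local robust SDs (Pdk4) and 2 at 1.2-fold. The median of the induced genes (0.12) lay between 0.10 and 0.12 in all alternatives run. No paired analysis was possible because each genotype has 1 array. Zbtb16, Tsc22d3 and Ddit4 lie near the floor, where signal over background limits the precision most.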

Other observations

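Among glucocorticoid-induced genes below the floor, Lcn2, an injury marker of the tubule, was at 5.49 in the wild-type and 4.87 in the knockout array, and Anxa1, an anti-inflammatory annexin, at 5.40 and 5.77. Cebpb was at 5.54 and 5.84 and Rasd1 at 4.64 and 4.11. These 4 were chosen after their values were seen, and they lie on both sides of 0.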
